A study of Mus musculus with 12 samples.

Results

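The 33 genes described here encode structural proteins of the heart sarcomere: the troponins and tropomyosins of the thin filament, the proteins that set thin filament length, titin and its thick filament and M-band partners, Z-disc proteins, and the filamin, desmin and costamere proteins that tie the Z-disc to the rest of the cell. Myosins and actins were left out. Members were chosen by gene symbol, with earlier results of these data known, and all 33 were found among the 54146 gene records of the count tables. Of these, 32 had enough counts to be tested, and the slow skeletal troponin gene Tnni1 did not.

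Polyadenylated RNA was sequenced from mouse hearts in 3 groups of 4 libraries. The groups were NRON KO mice after transverse aortic constriction (TAC KO), NRON WT mice after the same constriction (TAC WT) and NRON WT mice after sham surgery (Sham WT), each sampled 6 weeks after the operation. Transverse aortic constriction puts the left ventricle under a raised pressure load, and Nron is a long noncoding RNA known as a brake on the transcription factor NFAT. The labels do not state the allele, strain, sex or age of the mice, how the allele was made or the part of the heart taken, and a sham-operated NRON KO group was not analysed here.

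The sarcomere is the contractile unit of striated muscle. Thin filaments are anchored in the Z-disc, where alpha-actinin cross-links them, and thick filaments are held in register by the M-band. Titin spans from the Z-disc to the M-band as a molecular spring. Calcium binding to the troponin complex shifts tropomyosin across the surface of the thin filament and lets myosin heads attach. Z-disc proteins and desmin also carry force sideways to the membrane.

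The library totals were 28565856 to 35777820 counts in TAC KO, 26288519 to 35945770 in TAC WT and 27596898 to 35491024 in Sham WT. Each library had counts for 21642 to 22597 genes. Nron had 0 counts in both of its 2 records in all 12 libraries, which allows up to 0.0835 to 0.114 CPM (counts scaled to the same library total) depending on the library, so the counts do not check the genotype labels. Markers of heart muscle cells were abundant in every group, while the summed level of 4 atrial markers was at most 2.93 CPM. The labels do not say whether replicates came from separate animals, so every p-value rests on a spread between samples within groups, which may be technical. The main test shares its estimate of that spread over all groups, so leaving out a TAC KO library can change a call in TAC WT versus Sham WT. The TAC KO libraries differed from the others in how counts varied with GC content and gene length. The median log2 deviation of genes in the highest quintile of GC content minus that in the lowest quintile was 0.09 to 0.38 in TAC KO libraries, -0.13 to -0.06 in TAC WT and -0.11 to -0.04 in Sham WT. The same difference for the longest against the shortest genes was -0.21 to -0.12 in TAC KO, -0.03 to 0.16 in TAC WT and 0.02 to 0.13 in Sham WT. Test results of the members on TAC KO are therefore given with their value after removing each library's GC and length trends (GC and length correction) wherever that value changed a call. The paralog shares, the markers and the gene lists outside the members are given without this correction.

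In wild-type hearts, 18 of the 32 tested members (56.25%) differed between TAC WT and Sham WT, beside 19.7% of all tested genes. Because the members were chosen with earlier results known, the gap between these shares is a description and not independent evidence. The calls were spread over the roles. They took in 58.3% of the 12 Z-disc genes and 50% of the 4 linker, desmin and costamere genes. The share was 75% of the 4 thin filament length genes and 62.5% of the 8 tested troponin and tropomyosin genes. Of the 4 titin, thick filament and M-band genes, 25% passed. Synpo2l, an actin-binding Z-disc protein, was 4.27-fold higher in TAC WT than in Sham WT, myotilin (Myot) 2.62-fold, filamin C (Flnc) 2.22-fold and desmin (Des) 1.56-fold. Among the troponins and tropomyosins, Tnnt3, at a mean of 0.530 CPM in Sham WT, was 3.42-fold higher and Tpm2 1.99-fold. TAC WT 4 was far above its group for Tnnt3, and TAC WT 1 for Tpm2. The core cardiac genes for titin, cardiac troponin T, alpha-tropomyosin, myosin-binding protein C and alpha-actinin did not pass the test. The other cardiac troponin genes did, Tnni3 as lower (log2 -0.36) and Tnnc1 as higher (log2 0.26). In TAC KO hearts Synpo2l stood at 0.40 times and Flnc at 0.64 times their TAC WT level, while Myot and Des did not pass in that comparison. The embryonic or slow troponin gene Tnnt1 and the thin filament anchor nebulette (Nebl) were lower in TAC WT than in Sham WT and lower again in TAC KO, a second step that for Nebl was gone after GC and length correction (log2 0.03).

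Over all 32 tested members, 13 were higher and 5 lower in TAC WT than in Sham WT at an adjusted p under 0.05, and 14 did not pass. The test was edgeR's quasi-likelihood test on raw counts, with p adjusted by Benjamini and Hochberg over all 15477 tested genes. Of all tested genes, 9.67% were higher and 10% lower in this comparison, or 19.7% in either direction, against 56.25% of the members. The median log2 fold change of the members was 0.18, beside 0.00 for all tested genes. Regardless of sign, the medians were 0.29 and 0.17. Levels of the 2 groups did not overlap for 16 members, 11 of them higher and 5 lower, where 12% of all tested genes were higher without overlap and 12.7% lower, 24.7% in all. In bulk tissue, fewer cells of a type and less RNA per cell cannot be told apart.

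Between TAC KO and TAC WT, 2 members were higher and 9 lower, and 21 did not pass. The share that passed, 34.4%, is near the 33% of all tested genes that passed in either direction, with 15.7% higher and 17.3% lower. The members' median log2 fold change was -0.17, beside 0.00 for all tested genes. Regardless of sign, the medians were 0.23 and 0.22. Levels did not overlap for 2 members that were higher and 6 that were lower, where 13.3% of all tested genes were higher without overlap and 15.2% lower, 28.5% in all. After GC and length correction, 4 members were higher and 13 lower, 53.1% of the members beside 26.9% of all tested genes in the same fit (14.3% higher and 12.6% lower), and the median was -0.17.

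Against Sham WT, 7 members were higher and 4 lower in TAC KO, and 21 did not pass. This share of 34.4% stands beside 27.6% of all tested genes, 12.8% higher and 14.8% lower. The median log2 fold change of the members was 0.05. Regardless of sign, the median was 0.15 in the members and 0.20 in all tested genes. The larger share of calls thus did not go with larger changes. Levels did not overlap for 7 members that were higher and 3 that were lower, where 14.3% of all tested genes were higher without overlap and 16.3% lower, 30.7% in all. Genotype and surgery both differ here. The 3 comparisons share groups, so their results are set side by side and not counted as independent: TAC WT enters the first as the numerator and the second as the denominator. In all, 20 of the 32 tested members passed in at least 1 comparison and 12 in none.

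**Figure D1:**
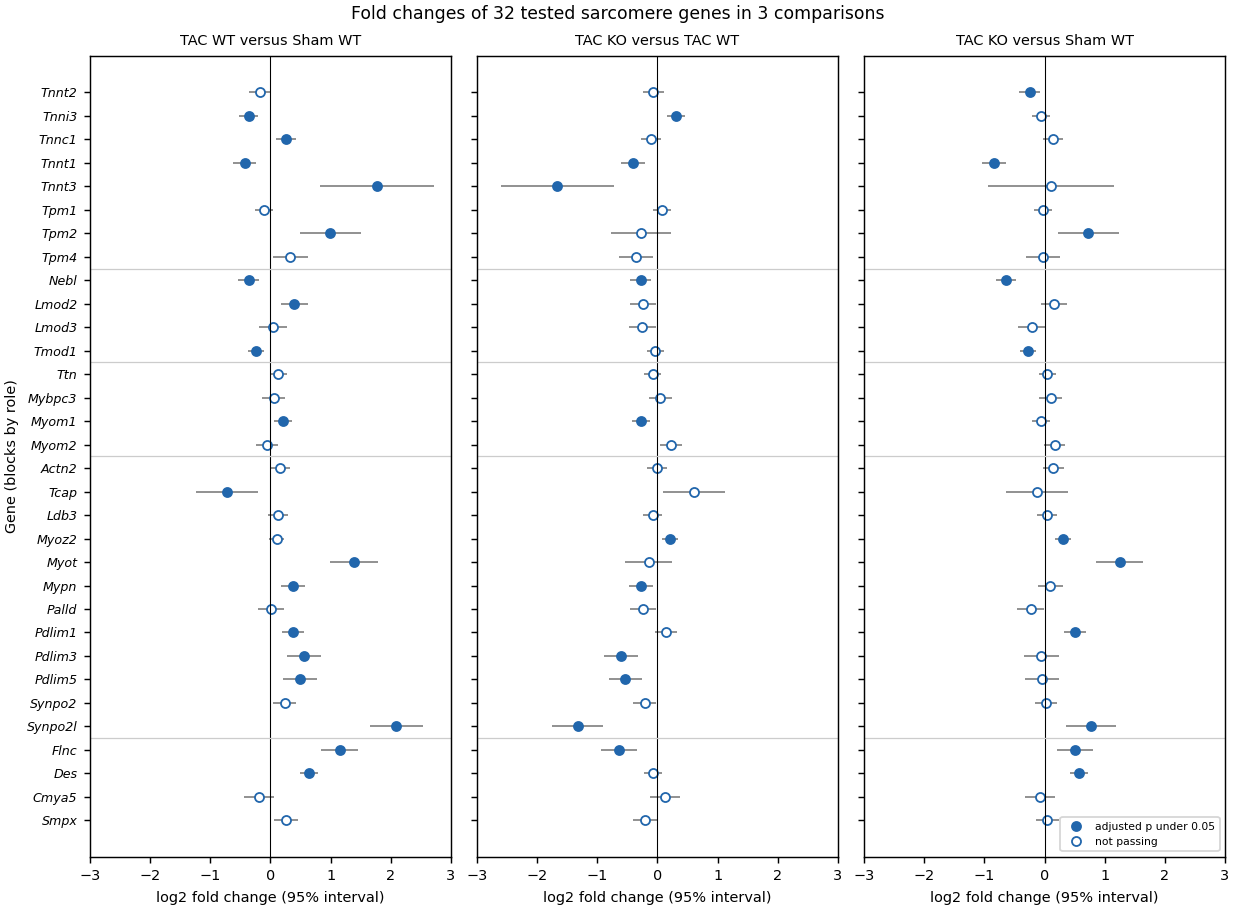
Log2 fold change of each of the 32 tested members on the x axis, with 95% intervals, in the 3 comparisons; filled points passed at an adjusted p under 0.05 and open points did not, and grey lines part the roles. Synpo2l, Tnnt3, Myot, Flnc, Tpm2 and Des lie to the right in TAC WT versus Sham WT. Tnnt3, Synpo2l, Flnc, Pdlim3 and Pdlim5 lie to the left in TAC KO versus TAC WT.

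Synpo2l, Flnc, Tnnt3, Myom1, Mypn, Pdlim3 and Pdlim5 passed as higher in TAC WT than in Sham WT and as lower in TAC KO than in TAC WT, 2 comparisons that share the TAC WT libraries. Windows from 250 bases before to 50 bases after the RefSeq transcription starts (build GRCm38.p6) are shown for 5 of them, chosen because these windows hold letters of muscle promoter motifs. The Flnc window is chr6:29433006-29433305 on the plus strand, the Pdlim3 window chr8:45885237-45885536 on the plus strand, the Mypn window chr10:63203903-63204202 on the minus strand and the Myom1 window chr17:71019307-71019606 on the plus strand. Synpo2l has an upstream window at chr14:20668305-20668604 and a downstream one at chr14:20664525-20664824, both on the minus strand. Each is printed 5′ to 3′ on its gene's strand. Capitals mark letters of the motifs searched on both strands, which were the M-CAT element CATTCC, known to bind TEAD factors, the GATA motif AGATAA, the TATA box TATAAA, the NFAT core GGAAAA, the CArG box known to bind SRF, and the MEF2 box.
Flnc: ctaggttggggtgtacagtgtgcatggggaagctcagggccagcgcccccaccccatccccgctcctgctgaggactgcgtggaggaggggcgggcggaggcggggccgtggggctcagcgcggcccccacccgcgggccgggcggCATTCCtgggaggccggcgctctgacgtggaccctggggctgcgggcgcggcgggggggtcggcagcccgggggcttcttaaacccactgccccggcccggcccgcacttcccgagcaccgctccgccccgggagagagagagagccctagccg
Pdlim3: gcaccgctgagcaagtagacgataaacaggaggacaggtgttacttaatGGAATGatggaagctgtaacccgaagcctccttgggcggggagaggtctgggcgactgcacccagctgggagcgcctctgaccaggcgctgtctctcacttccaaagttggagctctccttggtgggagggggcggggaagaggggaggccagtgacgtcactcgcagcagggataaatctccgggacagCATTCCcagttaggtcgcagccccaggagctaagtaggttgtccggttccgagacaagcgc
Mypn: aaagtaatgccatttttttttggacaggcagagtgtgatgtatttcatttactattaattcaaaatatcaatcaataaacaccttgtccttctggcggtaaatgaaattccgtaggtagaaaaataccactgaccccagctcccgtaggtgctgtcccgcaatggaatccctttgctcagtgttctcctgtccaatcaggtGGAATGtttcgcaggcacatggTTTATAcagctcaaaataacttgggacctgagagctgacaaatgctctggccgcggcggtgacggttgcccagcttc
Synpo2l upstream: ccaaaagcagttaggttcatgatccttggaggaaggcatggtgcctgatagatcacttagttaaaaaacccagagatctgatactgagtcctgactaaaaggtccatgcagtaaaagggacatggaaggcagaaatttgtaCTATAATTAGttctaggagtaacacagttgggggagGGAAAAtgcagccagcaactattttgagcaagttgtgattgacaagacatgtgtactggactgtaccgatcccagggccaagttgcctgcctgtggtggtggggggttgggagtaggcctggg
Synpo2l downstream: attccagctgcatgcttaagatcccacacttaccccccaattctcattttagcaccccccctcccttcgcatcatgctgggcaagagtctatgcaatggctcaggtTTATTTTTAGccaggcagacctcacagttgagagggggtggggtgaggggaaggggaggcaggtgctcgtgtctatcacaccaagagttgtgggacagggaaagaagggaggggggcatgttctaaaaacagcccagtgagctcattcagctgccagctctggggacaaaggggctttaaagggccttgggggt
Myom1: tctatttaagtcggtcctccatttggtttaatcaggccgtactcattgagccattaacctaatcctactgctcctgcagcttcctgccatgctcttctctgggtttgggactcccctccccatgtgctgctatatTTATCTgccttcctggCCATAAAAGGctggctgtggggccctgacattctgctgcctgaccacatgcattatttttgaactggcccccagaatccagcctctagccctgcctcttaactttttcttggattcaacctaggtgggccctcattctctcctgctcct

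The printed Flnc window holds 1 M-CAT match, the Pdlim3 window 1 on each strand and the Mypn window 1 on the opposite strand beside a TATAAA match. Both Synpo2l windows hold a MEF2 box, and the upstream one also holds GGAAAA. The Myom1 window holds a CArG box and an AGATAA match. In Pdlim5, TATAAA and GGAAAA were found and M-CAT, CArG and MEF2 letters were not. Among the 28 members with at least 1 window (39 windows), 10 genes held M-CAT letters, or 35.7%, where 16.6% of 27025 genes with a window did. A MEF2 box was found in 5 members (17.9%, against 3.70% of all genes) and a CArG box in 3 (10.7%, against 1.81%). GGAAAA was found in 7 members (25%, against 26.1%), AGATAA in 5 (17.9%, against 12.7%) and TATAAA in 5 (17.9%, against 15.7%). A gene with more windows has more chances of a match, so matches were also counted by window. M-CAT letters were in 11 of the 39 member windows, where 14.7% of all 32851 windows held them. The MEF2 box was in 6 (3.19% of all windows), the CArG box in 4 (1.63%) and GGAAAA in 7 (23.4%). AGATAA was in 6 (11.2%) and TATAAA in 5 (13.6%). In Synpo2 the TATAAA letters lie inside the MEF2 box. These matches describe the letters of the windows and were not tested as binding sites.

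Levels per kb of exon rank the members within the sarcomere. In Sham WT the highest were troponin C (Tnnc1) at 2507 scaled CPM per kb, cardiac troponin I (Tnni3) at 2018, titin-cap (Tcap) at 1439, Tpm1 at 1359, Tnnt2 at 1313 and Mybpc3 at 1138. The lowest were Tnnt1 at 9.78, Pdlim3 at 3.76, Tnnt3 at 0.335 and Tnni1 at 0.0381. Titin, the longest member, had 32.3 CPM per kb in Sham WT. The order depends on the length used. Divided by the longest coding transcript instead, Tnnt2 led with 8479 CPM per kb in Sham WT, because its annotated exons sum to 7752 bases and its longest coding transcript has 1200. Synpo2l stood at 70.8 CPM per kb in TAC KO, 177 in TAC WT and 41.5 in Sham WT. The 33 members together took 4.83 to 5.38% of the scaled counts of a library.

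**Figure D2:**
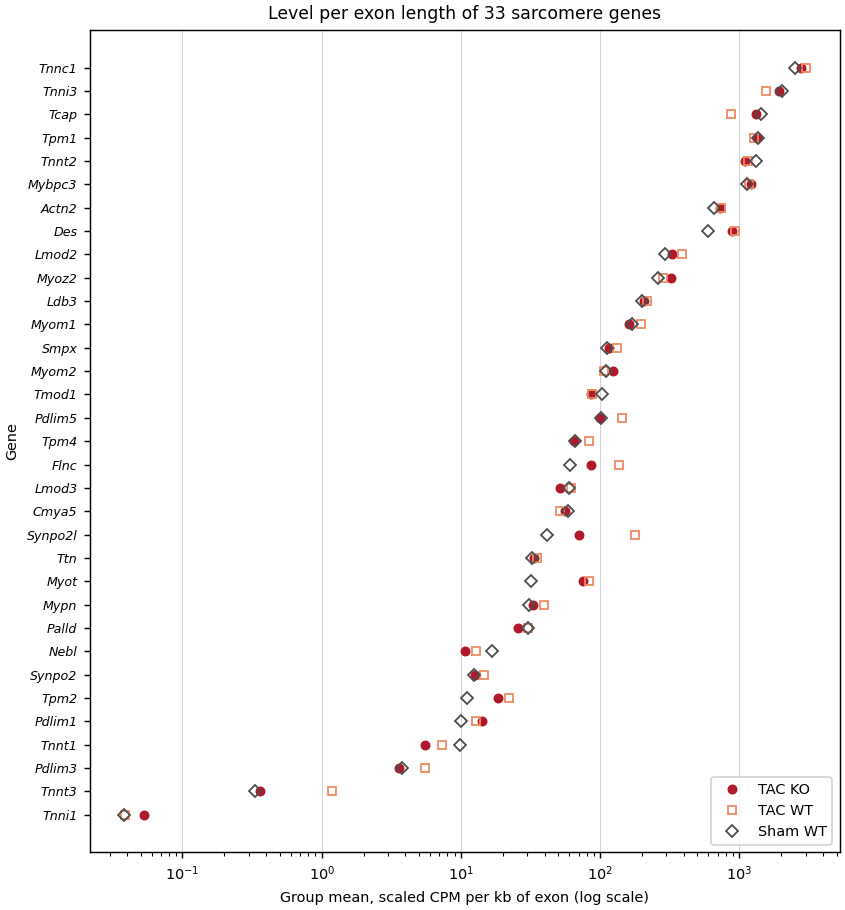
Group mean level of each of the 33 members in scaled CPM per kb of exon (x axis, log scale), with genes ordered by their Sham WT level and 1 symbol per group of 4 libraries. The symbols of most genes lie close together, and Synpo2l shows the widest gap between TAC WT (177) and Sham WT (41.5) among genes above 10 CPM per kb.

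Among the cardiac troponins, Tnni3, the inhibitory subunit of the heart, was lower in TAC WT. It had 4109, 3780, 3869 and 4267 CPM in TAC KO, against 2989, 3200, 3568 and 3179 CPM in TAC WT and 4322, 4013, 4315 and 4004 CPM in Sham WT. Every TAC WT library lay below every library of the other groups. Its change was log2 -0.36 ± 0.07 (SE) in TAC WT versus Sham WT (adjusted p = 0.00241) and 0.31 ± 0.07 in TAC KO versus TAC WT (adjusted p = 0.00461). After GC and length correction, the second value was 0.16 (adjusted p = 0.088). TAC KO versus Sham WT was -0.06 (adjusted p = 0.592), and -0.21 (adjusted p = 0.0367) with the trends removed. The exons of Tnni3 share 86 bases with Dnaaf3 on the same strand, a gene with 3918 counts over the 12 libraries against 1488346 for Tnni3.

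Cardiac troponin T (Tnnt2), which ties the troponin complex to tropomyosin, averaged 8572 ± 662 CPM in TAC KO, 8997 ± 510 in TAC WT and 10175 ± 903 in Sham WT (SD, n = 4 each). Its groups overlapped, and only TAC KO versus Sham WT passed, at log2 -0.25 ± 0.08 (adjusted p = 0.0357). That call was lost under 8 alternatives, among them leaving out TAC KO 1, TAC KO 2, TAC KO 3, Sham WT 1, Sham WT 3 or Sham WT 4 and GC and length correction (log2 -0.21, adjusted p = 0.128). Troponin C (Tnnc1), the calcium sensor, averaged 2880 ± 170 CPM in TAC KO, 3115 ± 272 in TAC WT and 2609 ± 196 in Sham WT. It was higher in TAC WT than in Sham WT by log2 0.26 ± 0.08 (adjusted p = 0.0342), a call that was lost without TAC WT 3, TAC WT 4, Sham WT 2, Sham WT 3 or Sham WT 4, with adjusted p of 0.0788 to 0.112. In TAC KO versus TAC WT Tnnc1 stood at log2 -0.11 (adjusted p = 0.294), and at -0.24 (adjusted p = 0.0328) after GC and length correction.

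The skeletal troponins were minor. Tnnt1, the slow skeletal troponin T also known from the embryonic heart, had 13.3, 11.1, 10.5 and 13.5 CPM in TAC KO, against 15.2, 14.7, 16.2 and 17.9 CPM in TAC WT and 22.5, 20.7, 20.7 and 22.4 CPM in Sham WT. The 3 groups did not overlap at all. Its log2 fold change was -0.43 ± 0.09 in TAC WT versus Sham WT (adjusted p = 0.00437), -0.41 ± 0.09 in TAC KO versus TAC WT (adjusted p = 0.00473) and -0.83 ± 0.09 in TAC KO versus Sham WT (adjusted p = 6.05e-05). Tnni1, the slow skeletal troponin I of the embryonic heart, had 25 counts in TAC KO, 19 in TAC WT and 18 in Sham WT over 4 libraries each, and was not tested.

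Tnnt3, the fast skeletal troponin T, had 0.447, 0.707, 0.513 and 0.630 CPM in TAC KO, against 0.902, 0.862, 1.59 and 4.12 CPM in TAC WT and 0.505, 0.515, 0.657 and 0.440 CPM in Sham WT. All TAC WT libraries were above the rest, and TAC WT 4 was far above its group. Tnnt3 stood at log2 1.77 ± 0.44 in TAC WT versus Sham WT (adjusted p = 0.0113) and 1.07 (adjusted p = 0.0162) without TAC WT 4. Between TAC KO and TAC WT it was -1.66 ± 0.44 (adjusted p = 0.0101), and -0.95 (adjusted p = 0.0169) without TAC WT 4. Limma voom did not call the second value (log2 -1.15, adjusted p = 0.0517). In TAC WT 4, Myh4 of fast skeletal fibres stood at 7.72 CPM (at most 0.200 in the other 11 libraries), Atp2a1 at 3.34 (at most 0.859), Tnnc2 at 2.94 (at most 0.315), Mylpf at 2.06 (at most 0.954), Actn3 at 1.29 (at most 0.240) and Pvalb at 1.07 (at most 0.123). Of the 14 skeletal muscle markers, 9 were highest in TAC WT 4, and Myh1 and Myod1 were at 0 there. The summed level of the list was 136 to 174 CPM in TAC KO, 174 to 265 in TAC WT and 108 to 117 in Sham WT. Most of that sum in every library came from Myl1, Mybpc2, Casq1 and Cacna1s. In TAC WT 3, the library with the highest sum, they stood at 121, 91.5, 38.9 and 11.0 CPM. In Sham WT 1 they stood at 30.4, 32.9, 31.5 and 17.5 CPM. The sum therefore says little about Myh4, Tnnc2, Actn3, Pvalb and Atp2a1, which stood out only in TAC WT 4. The part of skeletal muscle RNA in the Tnnt3 result was not tested.

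The main tropomyosin, Tpm1, averaged 8644 ± 455 CPM in TAC KO, 8215 ± 547 in TAC WT and 8814 ± 307 in Sham WT. It passed in no comparison, with log2 fold changes of -0.10, 0.07 and -0.03 in TAC WT versus Sham WT, TAC KO versus TAC WT and TAC KO versus Sham WT. Tpm2, the beta form of slow muscle and smooth muscle, had 46.8, 50.1, 69.97 and 46.7 CPM in TAC KO, against 111, 48.7, 48.2 and 48.9 CPM in TAC WT and 35.3, 34.2, 30.5 and 29.2 CPM in Sham WT. All 8 TAC libraries were above all Sham WT libraries, and TAC WT 1 stood alone. Tpm2 in TAC WT versus Sham WT was log2 0.99 ± 0.24 (adjusted p = 0.0091), and 0.59 (adjusted p = 0.00774) without TAC WT 1. Between TAC KO and TAC WT it was -0.27 ± 0.23 (adjusted p = 0.404), and 0.14 (adjusted p = 0.456) without TAC WT 1. In TAC KO versus Sham WT it was 0.72 ± 0.24 (adjusted p = 0.035). That call was lost without TAC KO 3 (log2 0.57, adjusted p = 0.102), without any 1 Sham WT library (adjusted p of 0.0542 to 0.0889) and after GC and length correction (log2 0.61, adjusted p = 0.0892). The 8 smooth muscle markers summed to 495 to 587 CPM in TAC KO, 404 to 588 in TAC WT and 555 to 628 in Sham WT. TAC WT 1, the library highest in Tpm2, had 425 CPM of them. Taken singly, 5 of the 8 markers were higher and 0 lower in TAC KO than in TAC WT, beside 33% of all tested genes called. In TAC KO versus Sham WT 3 were higher and 1 lower, beside 27.6%. In TAC WT versus Sham WT 0 were higher and 1 lower, beside 19.7%. The part of smooth muscle RNA in the Tpm2 result was not tested.

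Tpm4, a tropomyosin of the nonmuscle cytoskeleton, averaged 144 ± 31.3 CPM in TAC KO, 184 ± 26.6 in TAC WT and 146 ± 5.42 in Sham WT. Its log2 fold changes of 0.33 ± 0.13 in TAC WT versus Sham WT (adjusted p = 0.0968) and -0.36 ± 0.13 in TAC KO versus TAC WT (adjusted p = 0.0517) did not pass. After GC and length correction, TAC KO versus TAC WT was -0.38 (adjusted p = 0.0366). Other alternatives called it too, such as leaving out TAC WT 2 (log2 0.43, adjusted p = 0.0252, and -0.46, adjusted p = 0.0146). A processed copy, Gm7809, matches Tpm4 at 96.8% identity over 741 bases and held 122 counts in all libraries against 62095 for Tpm4.

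Of the genes that set thin filament length, nebulette (Nebl), the cardiac relative of nebulin at the Z-disc end, showed a graded level. It had 159, 183, 153 and 153 CPM in TAC KO, against 209, 218, 181 and 179 CPM in TAC WT and 271, 241, 250 and 252 CPM in Sham WT. Sham WT lay above both TAC groups without overlap, and the TAC groups overlapped at 179 to 183 CPM. Nebl changed by log2 -0.36 ± 0.08 in TAC WT versus Sham WT (adjusted p = 0.00538) and -0.64 ± 0.08 in TAC KO versus Sham WT (adjusted p = 0.000109). In TAC KO versus TAC WT it was -0.28 ± 0.08 (adjusted p = 0.0153), but 0.03 (adjusted p = 0.798) after GC and length correction. The GC content of Nebl is 40.1% and its exons sum to 15235 bases. TAC KO versus Sham WT stayed called with the trends removed, at -0.36 (adjusted p = 0.00509).

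Leiomodin 2 (Lmod2), which elongates thin filaments at their pointed ends, had 648, 805, 528 and 614 CPM in TAC KO, against 749, 809, 809 and 697 CPM in TAC WT and 590, 613, 564 and 559 CPM in Sham WT. TAC WT was above Sham WT in every library, at log2 0.40 ± 0.10 (adjusted p = 0.0136), and TAC KO overlapped both. Against TAC WT, TAC KO stood at -0.24 ± 0.10 (adjusted p = 0.0853). It passed without TAC KO 2 (log2 -0.36, adjusted p = 0.005) and after GC and length correction (log2 -0.30, adjusted p = 0.0353), and was -0.15 (adjusted p = 0.225) without TAC KO 3. Leiomodin 3 (Lmod3), better known from skeletal muscle, averaged 114 ± 18.6 CPM in TAC KO, 136 ± 14.5 in TAC WT and 132 ± 6.90 in Sham WT and passed in no comparison. Its TAC KO versus TAC WT value of -0.25 (adjusted p = 0.0832) passed without TAC KO 2 (log2 -0.31, adjusted p = 0.0465) and with the trends removed (log2 -0.30, adjusted p = 0.0406), and was -0.14 (adjusted p = 0.20) without TAC KO 3. Tropomodulin 1 (Tmod1), which caps the pointed end, had 348, 351, 314 and 338 CPM in TAC KO, against 358, 358, 339 and 331 CPM in TAC WT and 447, 418, 384 and 385 CPM in Sham WT. Both TAC groups were below Sham WT without overlap. Tmod1 changed by log2 -0.24 ± 0.06 in TAC WT versus Sham WT (adjusted p = 0.0182) and -0.27 ± 0.06 in TAC KO versus Sham WT (adjusted p = 0.00673). The first of these was lost without TAC WT 4, Sham WT 1 or Sham WT 2, with adjusted p of 0.0576 to 0.0682. Tmod1 shares 1287 exon bases with Tstd2 on the opposite strand, which held 7244 counts against 142633 for Tmod1.

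Titin (Ttn) averaged 3902 ± 173 CPM in TAC KO, 4125 ± 314 in TAC WT and 3773 ± 91.7 in Sham WT. It passed in no comparison, with log2 fold changes of 0.13 (adjusted p = 0.201) in TAC WT versus Sham WT, -0.08 (adjusted p = 0.388) in TAC KO versus TAC WT and 0.05 (adjusted p = 0.629) in TAC KO versus Sham WT. Limma voom with quality weights called titin higher in TAC WT than in Sham WT (log2 0.16, adjusted p = 0.0499). After GC and length correction, TAC KO versus TAC WT was 0.34 (adjusted p = 0.00462) and TAC KO versus Sham WT 0.31 (adjusted p = 0.01). Titin's exons sum to 116825 bases, at the far end of the length trend. Counts per gene do not show which titin or troponin T splice forms were present. Myosin-binding protein C (Mybpc3), which binds the thick filament and slows cross-bridge cycling, averaged 5077 ± 539 CPM in TAC KO, 4928 ± 342 in TAC WT and 4737 ± 425 in Sham WT. Its fold changes were between log2 0.04 and 0.10 and none passed. Between TAC KO and TAC WT the value was 0.04, and -0.05 after GC and length correction.

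Of the M-band proteins, myomesin 1 (Myom1) had 1719, 1829, 1654 and 1588 CPM in TAC KO, against 2209, 2124, 1935 and 1933 CPM in TAC WT and 1900, 1770, 1689 and 1718 CPM in Sham WT. TAC WT was above both other groups without overlap. In TAC KO versus TAC WT the log2 fold change was -0.27 ± 0.07 (adjusted p = 0.00879). In TAC WT versus Sham WT it was 0.21 ± 0.07 (adjusted p = 0.0441). The second call was lost under 10 alternatives, among them GC and length correction (0.18, adjusted p = 0.0559) and leaving out any of TAC KO 3, TAC WT 1 and 2 and Sham WT 2, 3 and 4, for which adjusted p was 0.053 to 0.129. Myom1 shares 207 exon bases with Myl12a on the opposite strand, which held 300246 counts against 720031 for Myom1. Myomesin 2 (Myom2), the adult and fast fibre form, averaged 1097 ± 106 CPM in TAC KO, 941 ± 95.4 in TAC WT and 976 ± 45.4 in Sham WT. Its TAC KO versus TAC WT value of log2 0.22 ± 0.08 (adjusted p = 0.0577) passed without TAC KO 3 (0.26, adjusted p = 0.0363), without TAC WT 4 (0.27, adjusted p = 0.0349) and with the trends removed (0.28, adjusted p = 0.0133).

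At the Z-disc, Synpo2l had the largest log2 fold change of the 32 tested members in TAC WT versus Sham WT. The gene (ENSMUSG00000039376) lies on the minus strand at chr14:20658946-20668354 in GRCm38. It had 236, 369, 355 and 351 CPM in TAC KO, against 1086, 519, 668 and 1009 CPM in TAC WT and 183, 205, 175 and 205 CPM in Sham WT. No 2 of the groups overlapped, and TAC WT libraries spread over a wide range. Synpo2l changed by log2 2.09 ± 0.20 in TAC WT versus Sham WT (adjusted p = 1.45e-05), -1.32 ± 0.20 in TAC KO versus TAC WT (adjusted p = 0.000337) and 0.77 ± 0.20 in TAC KO versus Sham WT (adjusted p = 0.0105). Its relative Synpo2, which binds alpha-actinin and filamin, averaged 166 ± 15.1 CPM in TAC KO, 193 ± 23.5 in TAC WT and 164 ± 9.27 in Sham WT. Its log2 fold change of 0.24 ± 0.09 in TAC WT versus Sham WT did not pass (adjusted p = 0.0738), and without TAC WT 3 it did (0.31, adjusted p = 0.0176). Against TAC WT, TAC KO stood at -0.21 ± 0.09 (adjusted p = 0.075) and passed without TAC KO 2 (-0.28, adjusted p = 0.0359) and also without TAC WT 3 (-0.29, adjusted p = 0.0178).

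Myotilin (Myot), an actin cross-linker of the Z-disc, stayed high in both TAC groups. It had 141, 118, 238 and 171 CPM in TAC KO, against 199, 213, 128 and 198 CPM in TAC WT and 73.6, 68.2, 69.4 and 70.5 CPM in Sham WT. Sham WT libraries were close together and every TAC library was above them, while the TAC groups overlapped widely. Myot was at log2 1.39 ± 0.19 in TAC WT versus Sham WT (adjusted p = 0.000164) and 1.25 ± 0.19 in TAC KO versus Sham WT (adjusted p = 0.000371). Between TAC KO and TAC WT it was -0.14 ± 0.18 (adjusted p = 0.581), with a 95% interval of -0.53 to 0.25. The related proteins myopalladin (Mypn) and palladin (Palld) moved less. Mypn had 186, 207, 183 and 187 CPM in TAC KO, against 272, 253, 195 and 205 CPM in TAC WT and 177, 194, 175 and 167 CPM in Sham WT. TAC WT was above Sham WT without overlap, at log2 0.38 ± 0.10 (adjusted p = 0.0125). TAC KO versus TAC WT was -0.28 ± 0.10 (adjusted p = 0.0371), lost under 6 alternatives that include leaving out any of TAC KO 1, 3 and 4 and TAC WT 1 and 2, for which adjusted p was 0.0745 to 0.134. Palld averaged 265 ± 18.6 CPM in TAC KO, 312 ± 52.5 in TAC WT and 311 ± 18.3 in Sham WT and passed in no comparison. Without TAC WT 3 it passed as lower in TAC KO than in TAC WT (log2 -0.35, adjusted p = 0.00317).

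The PDZ and LIM domain proteins bind alpha-actinin and carry signalling proteins to the Z-disc. Pdlim3 had 14.7, 15.4, 23.5 and 21.0 CPM in TAC KO, against 24.0, 29.8, 27.8 and 32.3 CPM in TAC WT and 21.2, 18.4, 19.1 and 18.6 CPM in Sham WT. TAC WT was above both groups without overlap, by log2 0.56 ± 0.13 over Sham WT (adjusted p = 0.00957). TAC KO versus TAC WT was -0.61 ± 0.13 (adjusted p = 0.00384). Pdlim5 had 752, 748, 1065 and 972 CPM in TAC KO, against 1375, 1387, 1023 and 1332 CPM in TAC WT and 1073, 874, 875 and 807 CPM in Sham WT. The groups overlapped through TAC WT 3, the library lowest in its group. The log2 fold change was 0.50 ± 0.13 in TAC WT versus Sham WT (adjusted p = 0.0157), which was 0.44 (adjusted p = 0.0508) without Sham WT 4, and -0.53 ± 0.13 in TAC KO versus TAC WT (adjusted p = 0.00708).

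Pdlim1 differed from these in TAC KO. It had 66.2, 72.6, 82.0 and 78.4 CPM in TAC KO, against 75.0, 57.4, 68.4 and 71.2 CPM in TAC WT and 51.2, 53.8, 50.6 and 54.3 CPM in Sham WT. Both TAC groups were above Sham WT without overlap, by log2 0.37 ± 0.08 for TAC WT (adjusted p = 0.00623) and 0.51 ± 0.08 for TAC KO (adjusted p = 0.000715). TAC KO versus TAC WT stood at 0.14 ± 0.08 (adjusted p = 0.224), and at 0.28 (adjusted p = 0.0146) after GC and length correction. A near copy, Gm5864, matches Pdlim1 at 97.0% identity over 981 bases and held 178 counts against 25511.

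Titin-cap (Tcap), which joins 2 titin ends at the Z-disc, had 2159, 857, 783 and 1215 CPM in TAC KO, against 739, 952, 703 and 900 CPM in TAC WT and 1408, 1196, 1512 and 1339 CPM in Sham WT. TAC WT lay below Sham WT without overlap, and TAC KO spanned the range of both. TAC WT versus Sham WT was log2 -0.73 ± 0.24 (adjusted p = 0.0477), a call lost under 10 alternatives with adjusted p of 0.06 to 0.116. They were DESeq2, library totals without scaling factors, and leaving out TAC KO 4, TAC WT 1, TAC WT 3, TAC WT 4 or any 1 Sham WT library. Tcap in TAC KO versus TAC WT was 0.61 ± 0.24 (adjusted p = 0.0676), which passed without TAC KO 2 (0.74, adjusted p = 0.0307) and also without TAC KO 3 (0.78, adjusted p = 0.0179). Without TAC KO 1 it was 0.21 (adjusted p = 0.322). Without TAC KO 1, TAC KO versus Sham WT was -0.51 (adjusted p = 0.0245), against -0.12 (adjusted p = 0.745) with it. TAC KO 1 also had the steepest GC trend of all libraries, at 0.38, and Tcap has a GC content of 61.3%, the highest of the members. After GC and length correction, Tcap in TAC KO versus TAC WT was 0.38 (adjusted p = 0.23). The part of the GC trend in the Tcap level of TAC KO 1 was not tested.

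Calsarcin 1 (Myoz2), which tethers the phosphatase calcineurin to alpha-actinin, was the only Z-disc gene, of 12 tested, that passed as higher in TAC KO than in TAC WT. It had 1053, 1085, 1124 and 1187 CPM in TAC KO, against 978, 994, 986 and 906 CPM in TAC WT and 933, 929, 884 and 852 CPM in Sham WT. Every TAC KO library was above all others, and TAC WT overlapped Sham WT. The log2 fold change was 0.20 ± 0.06 in TAC KO versus TAC WT (adjusted p = 0.0199) and 0.31 ± 0.06 in TAC KO versus Sham WT (adjusted p = 0.00245). The first was lost without TAC KO 4 (0.17, adjusted p = 0.0648), without TAC WT 4 (0.17, adjusted p = 0.0557) and with no low-count filter (adjusted p = 0.061), and was 0.35 (adjusted p = 0.00102) after GC and length correction. Alpha-actinin 2 (Actn2), the cross-linker of the Z-disc, averaged 2773 ± 64.5 CPM in TAC KO, 2784 ± 229 in TAC WT and 2501 ± 246 in Sham WT. It passed in no comparison, and TAC KO versus TAC WT was -0.01 with a 95% interval of -0.17 to 0.16. Without Sham WT 1 it passed as higher in TAC KO than in Sham WT (log2 0.22, adjusted p = 0.0475). Limma voom with quality weights called Actn2 higher in TAC WT than in Sham WT (log2 0.21, adjusted p = 0.0364). Cypher (Ldb3), which links alpha-actinin to signalling kinases, averaged 1264 ± 42.8 CPM in TAC KO, 1335 ± 146 in TAC WT and 1226 ± 55.3 in Sham WT and passed in none.

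Among the proteins that link the Z-disc to the membrane and between myofibrils, filamin C (Flnc), the muscle actin cross-linker, had 725, 866, 940 and 729 CPM in TAC KO, against 1353, 1305, 878 and 1566 CPM in TAC WT and 530, 594, 549 and 625 CPM in Sham WT. Every TAC library was above Sham WT, and TAC WT 3 lay within the TAC KO range. Flnc changed by log2 1.15 ± 0.14 in TAC WT versus Sham WT (adjusted p = 9.44e-05), -0.65 ± 0.14 in TAC KO versus TAC WT (adjusted p = 0.00348) and 0.50 ± 0.14 in TAC KO versus Sham WT (adjusted p = 0.0164). GC and length correction left the second value at -0.65 (adjusted p = 0.00287).

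Desmin (Des), the muscle intermediate filament, had 3476, 3223, 3392 and 3138 CPM in TAC KO, against 3435, 3419, 3164 and 3906 CPM in TAC WT and 2326, 2223, 2177 and 2198 CPM in Sham WT. All TAC libraries were far above Sham WT, and the TAC groups overlapped. It was higher than in Sham WT by log2 0.64 ± 0.07 in TAC WT (adjusted p = 4.14e-05) and 0.57 ± 0.07 in TAC KO (adjusted p = 0.000109). TAC KO versus TAC WT was -0.07 ± 0.07 (adjusted p = 0.449), with a 95% interval of -0.22 to 0.08, and -0.18 (adjusted p = 0.0465) after GC and length correction. Myospryn (Cmya5), a desmin and titin partner, averaged 665 ± 33.7 CPM in TAC KO, 611 ± 137 in TAC WT and 699 ± 30.8 in Sham WT and passed in no comparison. In TAC WT versus Sham WT it stood at -0.19 (adjusted p = 0.279). Without TAC WT 2 it was lower in TAC WT (log2 -0.32, adjusted p = 0.0301), and the value was -0.10 (adjusted p = 0.583) without TAC WT 3 and -0.11 (adjusted p = 0.579) without TAC WT 4. Smpx, a small costamere protein, averaged 262 ± 16.8 CPM in TAC KO, 303 ± 35.2 in TAC WT and 254 ± 28.7 in Sham WT. Its log2 fold change of 0.26 ± 0.09 in TAC WT versus Sham WT missed the threshold (adjusted p = 0.0645) and passed under 6 alternatives, leaving out Sham WT 1 among them (0.35, adjusted p = 0.0202). TAC KO was below TAC WT without overlap, both at 279 CPM where their ranges met, at -0.21 ± 0.09 (adjusted p = 0.0985), and at -0.12 (adjusted p = 0.311) without TAC WT 4.

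**Figure D3:**
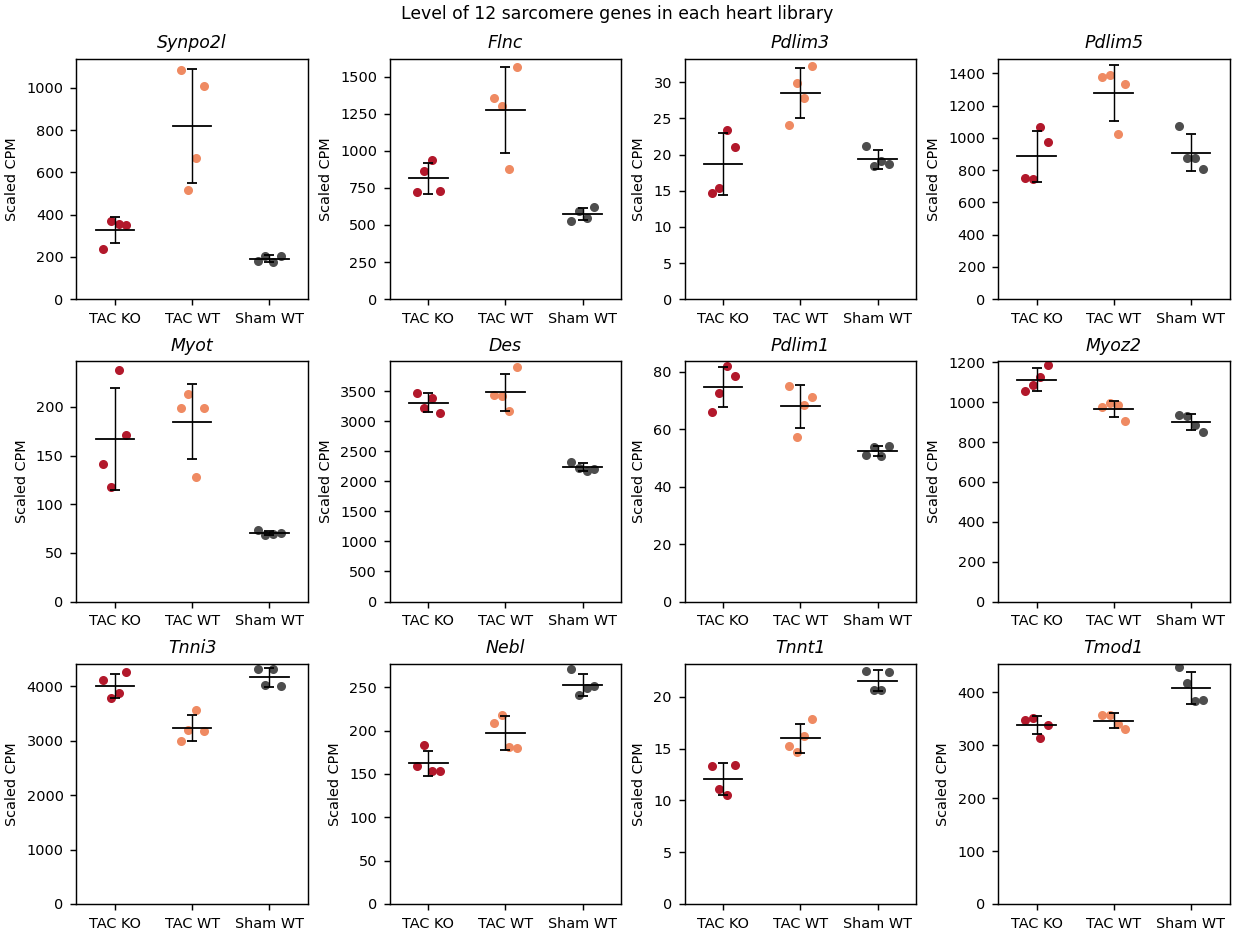
Scaled CPM of 12 members in each library (points), with the group mean (long bar) and SD (error bar) of 4 libraries, TAC KO, TAC WT and Sham WT from left to right; each y axis starts at 0. TAC WT stands above both other groups for Synpo2l and Pdlim3, and both TAC groups stand above Sham WT for Myot, Des and Pdlim1. For Flnc the TAC WT mean is the highest, with TAC WT 3 inside the TAC KO range. Tnnt1 steps down to a mean of 12.1 CPM in TAC KO, against 16.0 in TAC WT and 21.6 in Sham WT.

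By role, TAC WT versus Sham WT moved 6 of 12 Z-disc genes up and 1 down, 2 of 4 linker genes up, 1 of 4 titin, thick filament and M-band genes up, 1 of 4 thin filament length genes up and 2 down, and 3 of 8 tested troponin and tropomyosin genes up and 2 down. These are 25 to 75% of each role, beside 19.7% of all tested genes. In TAC KO versus TAC WT, 1 Z-disc gene was higher and 4 lower, 1 linker, 1 M-band and 1 thin filament length gene were lower, and 1 troponin or tropomyosin gene was higher and 2 lower. With the counts as deposited, these shares of 25 to 41.7% lie around the 33% of all tested genes. The calls were not counted by role after GC and length correction. In that fit 53.1% of all members passed, beside 26.9% of all tested genes. Summed levels of 12 heart muscle cell markers were 83596 to 90937 CPM in TAC KO, 75715 to 85708 in TAC WT and 88583 to 98428 in Sham WT. Of these 12 markers, 5 were lower and 0 higher in TAC WT than in Sham WT, beside 19.7% of all tested genes called. In TAC KO versus TAC WT 6 were higher and 0 lower, beside 33%. In TAC KO versus Sham WT 4 were higher and 3 lower, beside 27.6%. Summed levels of 9 fibroblast markers were 2376 to 3043 CPM in TAC KO, 1978 to 2556 in TAC WT and 1710 to 1948 in Sham WT. Those of 8 macrophage markers were 187 to 232 CPM in TAC KO, 120 to 169 in TAC WT and 141 to 155 in Sham WT. Of the 9 fibroblast markers, 5 were higher in TAC WT versus Sham WT, 2 in TAC KO versus TAC WT and 7 in TAC KO versus Sham WT. Of the 8 macrophage markers, 0, 5 and 5 were higher in that order. In both lists 0 were lower, and the shares of all tested genes called are those given above. The part of cell makeup in the members' changes was not tested.

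The GC and length trends moved members of TAC KO versus TAC WT by different amounts. Synpo2l was -1.32 with the counts as deposited and -1.38 (adjusted p = 0.000415) with the trends removed, Pdlim3 -0.61 and -0.48 (adjusted p = 0.014), Pdlim5 -0.53 and -0.37 (adjusted p = 0.0461), Tnnt1 -0.41 and -0.53 (adjusted p = 0.000753), and Myom1 -0.27 and -0.18 (adjusted p = 0.0453). These calls held. Nebl, Ttn and Tnni3 shifted by the amounts given above, and the sign changed for Nebl, Ttn and Mybpc3.

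**Figure D4:**
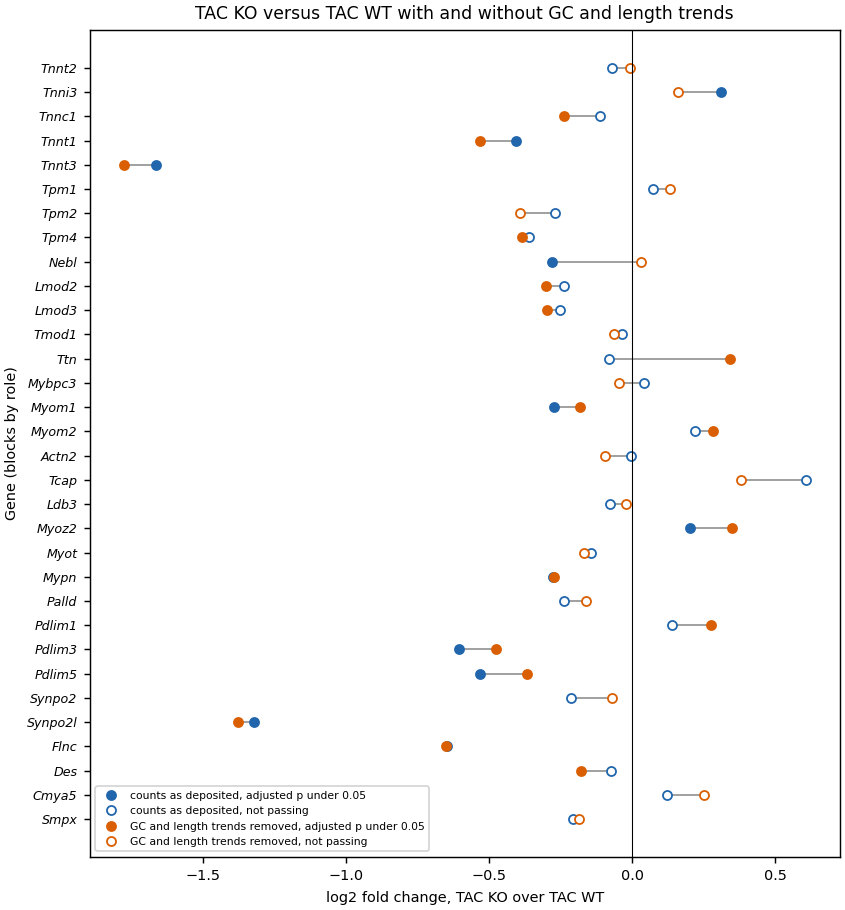
Log2 fold change of each tested member in TAC KO versus TAC WT (x axis) from the counts as deposited and after removing each library's trends with GC content and exon length, joined by a line; filled points passed at an adjusted p under 0.05. Synpo2l and Flnc hardly moved, while Nebl went to 0.03 and Ttn to 0.34.

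Paralog shares within a family, on counts per kb of exon, were compared with two-sided exact permutation tests of 4 against 4 libraries, where the smallest p is 0.0286. Of 18 tests on 6 shares, 9 reached that smallest p, and none passed after Benjamini-Hochberg adjustment over the 18 (adjusted p = 0.0571), where at least 11 would have had to reach it for any to pass. The share of Myom2 in Myom1 and Myom2 was 43.2% ± 1.19 in TAC KO, 35.1% ± 2.57 in TAC WT and 39.5% ± 1.103 in Sham WT (SD, n = 4 each). TAC KO lay above both other groups without overlap. Lmod3 made up 13.6% ± 1.16 of Lmod2 and Lmod3 in TAC KO, 13.7% ± 1.12 in TAC WT and 16.9% ± 0.91 in Sham WT, so both TAC groups were below Sham WT. Tnnt1 and Tnnt3 together made up 0.526% ± 0.0533 of troponin T in TAC KO, 0.721% ± 0.114 in TAC WT and 0.768% ± 0.0527 in Sham WT. The size of this share depends on the length used, because the exons of Tnnt2 sum to 7752 bases and its longest coding transcript has 1200. Per kb of longest coding transcript, the Sham WT means were 8479 CPM for Tnnt2, 20.4 for Tnnt1 and 0.491 for Tnnt3, so the share is lower on that scale. Of the sum of Tpm1, Tpm2 and Tpm4, which leaves out Tpm3, Tpm2 took 1.302% ± 0.301 in TAC KO, 1.62% ± 0.828 in TAC WT and 0.773% ± 0.0583 in Sham WT. Tpm4 took 4.58% ± 0.838, 6.09% ± 0.763 and 4.63% ± 0.238 of it in TAC KO, TAC WT and Sham WT. Tnni1 stayed at 0.00276% of Tnni1 and Tnni3 in TAC KO, 0.00244% in TAC WT and 0.00187% in Sham WT.

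**Figure D5:**
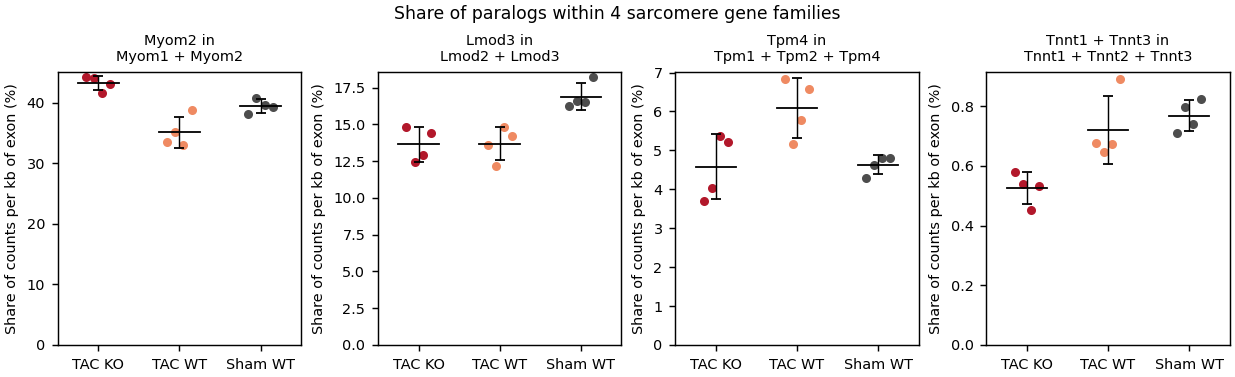
Share of paralogs in the counts per kb of exon of 4 sarcomere gene families (y axis, percent, from 0) in each library (points), with the mean (long bar) and SD (error bar) of 4 libraries per group. Myom2 is highest in TAC KO (41.6 to 44.2%), and Lmod3 is highest in Sham WT (16.2 to 18.2%).

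The spread among replicates differed by group. The median coefficient of variation over the tested members was 8.94% in TAC KO, 10.8% in TAC WT and 5.46% in Sham WT. Single libraries recurred at the edges of their groups. TAC WT 3 was the lowest of its group for 15 of the 32 members, Sham WT 1 the highest for 18 and TAC KO 2 the highest for 13.

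Other sarcomere genes, from lists of genes by role, were counted in the same fit. The lists, like the members, were chosen with earlier results of these data known, so their shares are descriptions. These genes were not refitted with GC and length correction, so its effect on their TAC KO values was not tested. Of 21 tested genes of the thick and thin filaments outside the members, 5 were higher and 2 lower in TAC WT than in Sham WT, 3 higher and 5 lower in TAC KO than in TAC WT, and 7 higher and 3 lower in TAC KO than in Sham WT. The shares that passed were 33.3%, 38.1% and 47.6% in that order, beside 19.7%, 33% and 27.6% of all tested genes. Skeletal alpha-actin (Acta1) averaged 3561 ± 728 CPM in TAC KO, 7259 ± 1376 in TAC WT and 482 ± 157 in Sham WT, and TAC WT versus Sham WT was log2 3.91 ± 0.23 (adjusted p = 3.82e-07). Beta-myosin heavy chain (Myh7) averaged 2265 ± 972 CPM in TAC WT and 342 ± 40.7 in Sham WT, a log2 fold change of 2.73 ± 0.33 (adjusted p = 7.72e-05). The light chain Myl1, also a skeletal muscle marker above, was lower in TAC KO than in TAC WT by log2 -0.80 ± 0.14 (adjusted p = 0.000851), as was Tmod3 by -0.47 ± 0.08 (adjusted p = 0.00059), while Tmod4 was higher by 0.77 ± 0.11 (adjusted p = 0.00022).

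Of 37 other Z-disc, M-band and costamere genes, 19 were higher and 3 lower in TAC WT than in Sham WT, 3 higher and 17 lower in TAC KO than in TAC WT, and 10 higher and 4 lower in TAC KO than in Sham WT. Of the list, 59.5%, 54.1% and 37.8% passed in that order, beside the same shares of all tested genes as above. The median log2 fold changes were 0.31, -0.26 and 0.16 in that order. Ankrd1, a stretch-responsive ankyrin repeat protein, was higher in TAC WT than in Sham WT by log2 2.55 ± 0.22 (adjusted p = 8.1e-06), and the actin-binding Xin proteins Xirp2 and Xirp1 by 1.88 ± 0.17 (adjusted p = 8.1e-06) and 1.42 ± 0.14 (adjusted p = 1.44e-05). Nexilin (Nexn), an actin-binding Z-disc and dyad protein, averaged 568 ± 70.9 CPM in TAC KO, 1145 ± 36.1 in TAC WT and 918 ± 56.3 in Sham WT. It was lower in TAC KO by log2 -1.01 ± 0.08 against TAC WT (adjusted p = 5.77e-06) and by -0.69 ± 0.08 against Sham WT (adjusted p = 8.68e-05). Sorbs2, a costamere adaptor, was lower in TAC KO than in TAC WT by -0.77 ± 0.10 (adjusted p = 0.000177), and Pdlim4 was higher by 0.74 ± 0.09 (adjusted p = 6.92e-05).

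Of 24 sarcomere assembly, chaperone and transcription factor genes, 10 were higher and 4 lower in TAC WT than in Sham WT, 10 lower in TAC KO than in TAC WT with 14 not passing, and 7 higher and 5 lower in TAC KO than in Sham WT. The shares of the list were 58.3%, 41.7% and 50% in that order. The chaperone Hsp90aa1, which helps fold myosin, averaged 95.7 ± 17.9 CPM in TAC KO, 214 ± 33.6 in TAC WT and 98.8 ± 10.6 in Sham WT. It was higher in TAC WT than in Sham WT by log2 1.11 ± 0.13 (adjusted p = 7.7e-05) and lower in TAC KO than in TAC WT by -1.16 ± 0.13 (adjusted p = 6.16e-05). Alpha-B crystallin (Cryab), a small chaperone of desmin and titin, averaged 1603 ± 107 CPM in TAC KO, 2194 ± 147 in TAC WT and 1327 ± 63.2 in Sham WT. Its log2 fold change was 0.73 ± 0.07 in TAC WT versus Sham WT (adjusted p = 1.44e-05) and -0.45 ± 0.07 in TAC KO versus TAC WT (adjusted p = 0.000414). Mef2c, a muscle transcription factor, was lower in TAC KO than in TAC WT by -0.53 ± 0.06 (adjusted p = 5.75e-05), and Mef2a was lower in TAC KO than in Sham WT by -0.64 ± 0.06 (adjusted p = 9.58e-06).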

How the data were processed

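Polyadenylated RNA from 12 mouse heart libraries, 4 per group, was sequenced with a directional kit. Samples were numbered 1 to 4 within a group in the order listed, and the numbers pair nothing. Per the submitters' processing notes, the tools were STAR and featureCounts 1.6.4 on build GRCm38, with Trim Galore 0.5.0, bcl2fastq, StringTie 1.3.5, DESeq2, FastQC 0.11.8 and MultiQC 1.7 also named. The authors deposited raw counts per gene record. The strand setting of the counting is not given in the sources used here, so reads of opposite-strand genes that overlap may be mixed.

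From the counts, 15477 genes passed edgeR's low-count filter. All 12 libraries were fitted together with edgeR 4.0.16 (R 4.3.3), TMM scaling and the quasi-likelihood test, with Benjamini-Hochberg adjusted p under 0.05 over all tested genes. The common biological coefficient of variation was 0.113. Levels are TMM-scaled CPM, divided by exon length (GENCODE annotation, GRCm38) for comparisons between genes. Alternatives used DESeq2 1.42.0, limma 3.58.1, sva 3.50.0, other scalings and filters, splines of 5 degrees of freedom for GC and length, and each library left out. Near copies were sought with minimap2 2.31-r1302, and exact tests used scipy 1.17.1. On simulated counts for TAC WT versus Sham WT (15323 genes, 200 changed), 80.6% of 2-fold and 67% of 1.5-fold changes were recovered, and 6.41% of calls were false. All 33 members are accounted for, and of each other list up to 3 genes with the smallest p per comparison were named. The members and lists were chosen with earlier results of these data known. Limits from 0 counts use 3 counts and cover counting error only. Sequences are from RefSeq.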

Additional observations from a re-analysis of the deposited data

Results flagged for a closer look

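In 117 groups of 4 values, of which chance marks about 1 in 20, 9 held a library far from the other 3. Tpm1 was 9321 CPM in TAC KO 4, beside 8347 to 8472 in the rest of that group. Tpm2 was 69.97 CPM in TAC KO 3, beside 46.7 to 50.1, and 111.5 CPM in TAC WT 1, beside 48.2 to 48.9. The share of Tpm2 in Tpm1, Tpm2 and Tpm4 was 2.86% in TAC WT 1, beside 1.12 to 1.31%. Actn2 was low in TAC KO 3, at 2677 CPM beside 2803 to 2807. Pdlim5 was low in TAC WT 3, at 1023 CPM beside 1332 to 1387. Synpo2l was low in TAC KO 1, at 236 CPM beside 351 to 369, in the library with the steepest GC trend, and its log2 fold change in TAC KO versus TAC WT was -1.38 after GC and length correction. The share of Tnnt1 and Tnnt3 in troponin T was 0.891% in TAC WT 4, beside 0.645 to 0.675%. Lmod3 took 18.2% of Lmod2 and Lmod3 in Sham WT 4, beside 16.2 to 16.6%.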

How the results depend on the processing

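Of 2109 recomputed member fold changes, 1965 kept direction and side of the threshold, 55 lost the call, 50 gained one and 39, of 17 values, changed sign. In 2 of the sign changes the value had passed before or after, both with GC and length correction in TAC KO versus TAC WT, where Nebl was 0.032 and Ttn 0.34 on the log2 scale. The cause was not tested. The other sign changes were in values that passed neither before nor after.

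With the same correction, Mybpc3 was -0.047 in TAC KO versus TAC WT, and Ttn -0.034 and Palld -0.032 in TAC WT versus Sham WT. In TAC KO versus Sham WT, Tnnt3 was -0.017, Tpm1 0.018, Pdlim3 0.085, Pdlim5 0.11 and Cmya5 0.024. Limma voom turned Mybpc3 in TAC KO versus TAC WT (-9.8e-05) and, in TAC KO versus Sham WT, Tpm4 (0.033), Pdlim3 (0.020), Pdlim5 (0.037) and Synpo2 (-0.0059).

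Leaving out 1 library at a time, values that crossed 0 in TAC WT versus Sham WT ranged from -0.035 to 0.078 for Lmod3, -0.10 to 0.015 for Myom2 and -0.067 to 0.12 for Palld. Between TAC KO and TAC WT they ranged from -0.43 to 0.14 for Tpm2, -0.0079 to 0.11 for Mybpc3 and -0.059 to 0.034 for Actn2. The ranges in TAC KO versus Sham WT were -0.13 to 0.083 for Tpm4, -0.51 to 0.050 for Tcap, -0.18 to 0.053 for Pdlim3, -0.14 to 0.059 for Pdlim5 and -0.030 to 0.076 for Synpo2.

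GC and length correction gave 4 members higher in TAC KO than in TAC WT, against 2. Leaving out 1 library gave 1 (without TAC KO 4) to 4 (without TAC KO 3) higher there, and 3 (without TAC WT 4, Sham WT 1 or Sham WT 2) to 6 members lower in TAC WT than in Sham WT. Calls held under every alternative for 13 of 18 members in TAC WT versus Sham WT, 6 of 11 in TAC KO versus TAC WT and 9 of 11 in TAC KO versus Sham WT. Paralog shares were also scaled by the longest coding transcript, a choice made after seeing the data. No share could pass after adjustment unless 11 of the 18 tests reached the smallest p, so nothing is read from their staying below the threshold. No paired analysis was possible because the labels give no replicate numbers, and the numbers used here only name the samples of a group. Depth limits Tnni1 and Tnnt3, the members with the fewest counts.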
